A study of Homo sapiens with 6 samples.

Results

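Potassium and calcium channel genes were taken as the protein-coding rows of the gene count table whose symbols begin with KCN and a letter, or with CACNA, CACNB or CACNG. This gave 108 of 31831 genes in the table, of which 84 belong to potassium channels and 24 to voltage-gated calcium channels. RNA-seq had been performed in HK-2 cells, an established human cell line of immortalized proximal tubule epithelium from kidney. All cells were kept in 30 mM glucose for 72 h and had been transduced with a lentivirus, which carried either no insert (HG-NC, 3 libraries) or the hnRNP-F coding construct (HG-OE, 3 libraries). The cells of each group were a transduced population, so both groups shared the high glucose and the viral vector, and a low-glucose group was not used here. The paper describes the libraries as biological replicates, and p-values measure the spread between them. Its methods also mention parallel wells for each group, and whether each library came from its own transduction is not stated. Overexpression cannot be told apart from other differences between the transduced populations. In bulk RNA, fewer cells of a type and less RNA per cell cannot be told apart.

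Potassium channels let potassium leave or enter the cell along its gradient and so set the membrane voltage. Voltage-gated families (KCNA to KCND, KCNH and KCNQ) open on depolarization, KCNM and KCNN channels open with calcium, KCNJ channels pass current more easily inward, and KCNK channels leak at rest. In the renal tubule, potassium channels keep the voltage that drives electrogenic sodium-coupled transport, and KCNJ channels of the basolateral membrane recycle the potassium brought in by the sodium pump. Many voltage-gated calcium channels, though not all, combine a pore-forming CACNA1 subunit with CACNA2D and CACNB subunits that raise its number in the membrane. CACNG proteins act as partners of calcium channels or of glutamate receptors.

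HNRNPF, the gene of hnRNP-F, had 7733, 8623 and 8692 counts in HG-NC and 12492, 13155 and 12397 counts in HG-OE, or 0.48 higher on the log2 scale in HG-OE (standard error, SE, 0.0388). The adjusted p was 2.80e-07 by the quasi-likelihood test of edgeR, Benjamini-Hochberg adjusted across 17142 genes, and this test gives the adjusted p of every gene that follows. Library totals ranged from 25507595 to 29444841 counted pairs. Of the renal epithelial markers, PAX8 had 11953 to 18291 counts per library and PAX2 had 53 to 88. CDH1 had 2 to 10 counts in 5 libraries and 384 in HG-OE replicate 3. Of 11 proximal tubule markers, 10 were in the table and 8 had a mean of at least 10 counts. SLC5A2 had 73 to 127 counts per library, while HNF4A, among these 8, and LRP2 had no count outside HG-OE replicate 3. The summed level of the proximal tubule list in CPM, counts scaled to library size, was mostly that of DPP4 (52.2 to 52.9 in HG-NC and 90.8 to 111 in HG-OE). HG-OE replicate 3 stood apart from the other libraries. It alone had many counts of the liver gene ALB (4359, against 0 to 78 elsewhere) and of the squamous keratin KRT17 (724, against 0 to 1), and the summed squamous list (7 genes, 4 with a mean of at least 10 counts, KRT14 at a mean under 1) was 71.6 CPM in it against 6.43 to 8.89 CPM in the other 5 libraries. The liver list (8 genes) was at 266 to 276 CPM in HG-NC and 461 to 676 CPM in HG-OE, mostly from SERPINA1. Channel calls are therefore given with and without HG-OE replicate 3, and the part of these other transcripts in the results was not tested beyond that.

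The pore of most potassium channels carries a signature of threonine, an aliphatic residue, glycine, tyrosine or phenylalanine, and glycine, which forms the selectivity filter. The coding motif of this signature was a threonine codon, a codon with T as its middle base, a glycine codon, a codon that begins with T, and a glycine codon. Searched in frame on the coding strand of 1 transcript per gene (GENCODE 44, GRCh38), it was present in 55 of 106 channel genes with a coding sequence and in 184 of 19820 coding sequences overall (0.928%). No CACN, KCNAB, KCNE, KCNIP or KCNMB gene held it, and several KCNK genes, whose subunits have a pair of pore loops, held it 2 times. Some potassium channel pore genes did not hold it either, among them KCNH1, KCNH3, KCNH4, KCNK1 and KCNJ14. The windows below are those of the 7 subunits with the motif that changed by at least 2-fold in HG-OE and of KCNMA1 and KCNS3, the subunits with the most counts and the highest FPKM. Capitals mark the 15 bases of the motif, written 5′ to 3′ on the coding strand.
KCNG1: atgacgACGGTGGGCTATGGCgacatggtc
KCNC2: atgactACCCTGGGTTATGGGgatatgtac
KCNJ3: gaggccACCATCGGCTATGGCtaccgatac
KCNJ11: caagtgACTATTGGCTTTGGGgggcgcatg
KCNJ15: cagacaACCATTGGCTATGGAgtccgttcc
KCNK6: atcaccACCGTGGGCTATGGGtacacaacg
KCNK12, first match: gtgtcaACCATAGGTTTCGGCatgaccacc
KCNK12, second match: ttcagcACCATCGGCTTCGGGgacctggtg
KCNMA1: atgtccACCGTTGGTTATGGGgatgtttat
KCNS3: atgacaACTGTGGGCTATGGAgacacccac

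All of these motifs are exonic and coding. They lie at chr20:51004297-51004311 on the minus strand in exon 3 of 3 of KCNG1, chr12:75050682-75050696 on the minus strand in exon 3 of 5 of KCNC2, chr2:154699202-154699216 on the plus strand in exon 1 of 3 of KCNJ3, and chr11:17387690-17387704 on the minus strand in the single exon of KCNJ11. The motif of KCNJ15 is at chr21:38299640-38299654 on the plus strand in exon 3 of 3, that of KCNMA1 at chr10:77110236-77110250 on the minus strand in exon 8 of 28, and that of KCNS3 at chr2:17932116-17932130 on the plus strand in exon 3 of 3. In KCNK6 the motif is split by an intron between exons 1 and 2 (chr19:38320266-38326600, plus strand). The first motif of KCNK12 is split in the same way (chr2:47521801-47569947, minus strand), and its second lies in exon 2 (chr2:47521420-47521434).

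Of the 108 channel genes, 50 were expressed, with 10 or more counts per library on average, and 58 were not. Of these 58, 23 had at most 3 counts summed over the 6 libraries. The expressed set held 43 potassium and 7 calcium channel genes. All 4 KCNIP genes, calcium-binding partners of KCND channels, were expressed, as were 8 of 15 KCNJ genes, 7 of 13 KCNK genes and 5 of 9 genes of the silent subunits KCNF, KCNG, KCNS and KCNV, which form channels only together with KCNB subunits. In contrast, CACNA1H, a T-type calcium channel, was the only expressed gene of the 10 CACNA1 pore genes, and KCNE5 was the only one of 5 KCNE genes. Without any single library, 49 to 52 genes met the same limit.

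**Figure D1:**
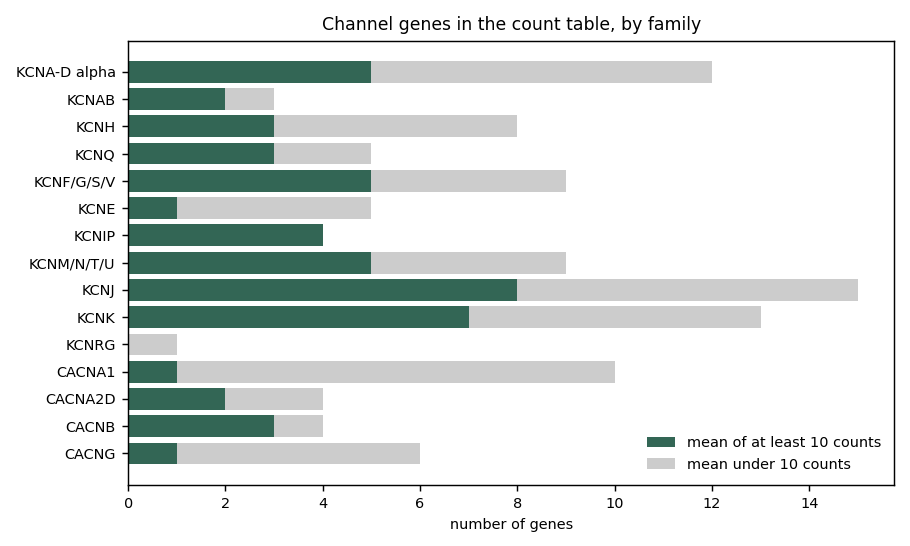
Number of channel genes per family (x axis) that averaged 10 or more counts per library (green) or less (grey) over 6 libraries. All 4 KCNIP genes but only 1 of 10 CACNA1 genes reached the limit.

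By FPKM, which scales counts to gene length and library size, the silent subunit KCNS3 was highest in every library of HG-NC (mean 17.6 ± 0.221, SD of 3 libraries) and averaged 13.2 ± 0.328 in HG-OE. KCNK3, an acid-sensitive leak channel, followed at 13.8 ± 0.208 and 12.6 ± 0.687 FPKM, and its HG-OE values came close to those of KCNS3. KCNS1 came next at 7.07 ± 0.31 and 5.3 ± 0.317 FPKM. KCNK15, CACNB3, KCNN4, KCNMA1 and KCNK1 followed, with HG-NC means of 3.38 to 4.11 FPKM. KCNMA1 and KCNN4 overlapped in HG-NC, as did CACNB3 and KCNK15, and KCNMA1 was above KCNK1 in every library of HG-NC.

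KCNMA1, the pore of the large-conductance calcium-activated channel, had the most counts of all channel genes (2689 to 5305 per library) and yet ranked 7 of 50 by FPKM. The length implied by its deposited FPKM was 44.2 kb, against 6261 bases for its canonical transcript, and per kb of the canonical transcript it ranked 2. This second order was added after the data had been seen. Over the 50 genes, the 2 orders had a Spearman correlation of 0.933, computed across genes that share the same libraries. KCNS3 ranked 1 in both.

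**Figure D2:**
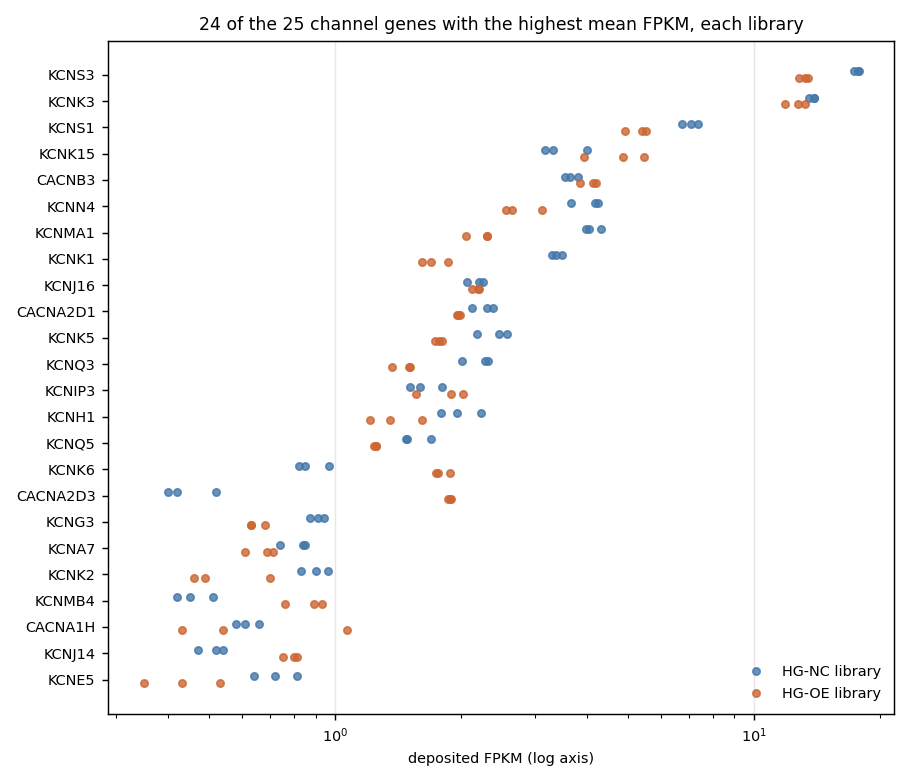
Deposited FPKM (log axis) of 24 of the 25 channel genes with the highest mean, each point 1 library, HG-NC in blue and HG-OE in orange. KCNS3 and KCNK3 lie above 10 FPKM in all libraries, and the groups of KCNK6, CACNA2D3 and KCNK1 are apart.

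Summed over the 84 potassium channel genes, FPKM was 76.5 to 80.3 in HG-NC and 62.2 to 66.8 in HG-OE. The sum over the 24 calcium channel genes was 7.73 to 8.05 in HG-NC and 9.24 to 9.7 in HG-OE. The groups did not overlap in either sum. The potassium sum was led by KCNS3, KCNK3 and KCNS1, and the calcium sum by CACNB3 and the CACNA2D genes.

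For the comparison of HG-OE with HG-NC, 51 channel genes were tested, which are the 50 expressed genes and CACNB2. CACNB2 passed the filter on low counts only through its HG-OE libraries. KCNC2, KCNIP4, KCNK12 and KCNT2 also passed it only through HG-OE, and KCNG1 and KCNJ3 only through HG-NC. An adjusted p under 0.05 was reached by 36 of 51 (70.6%, or 35 of 50 without CACNB2), 12 with higher and 24 with lower levels in HG-OE. Over all genes tested, this share was 51.8%, with 25.9% higher and 25.9% lower, and over protein-coding genes averaging 10 or more counts it was 58.4% (28.3% higher and 30.1% lower). The median log2 fold change of the tested channel genes was −0.12, against 0.011 for all genes, and their median absolute log2 fold change was 0.58, against 0.27. The groups did not overlap in 39 of 51 channel genes (76.5%), and in 59% of all genes and 64.7% of those protein-coding genes.

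A change of at least 2-fold with an adjusted p under 0.05, as the study defined differentially expressed genes, was found in 12 of 51 channel genes (23.5%), 7 higher and 5 lower, or in 11 of 50 (22%) without CACNB2, whose HG-OE libraries alone brought it past the filter. The 11 still hold KCNC2, KCNG1, KCNJ3 and KCNK12, which passed the filter through 1 group alone. Of the 12, CACNB2, KCNC2, KCNG1, KCNH3, KCNJ3 and KCNK12 had under 10 counts in at least 1 library. With at least 10 counts required in each library, 6 of 43 were called, 3 higher and 3 lower. The share over all genes was not computed for that stricter filter. With the filter that gave 12 of 51, 5.82% of all genes tested were called, 3.69% higher and 2.13% lower. So were 5.02% of protein-coding genes averaging 10 or more counts. Low-count genes pass a fold limit more often: among genes with a mean of at least 100 counts, it was met by 3 of 22 channel genes (13.6%) and 2.62% of protein-coding genes, and between 10 and 100 counts by 8 of 28 (28.6%) and 18.4%. Genes with the pore motif (7 of 29, 24.1%) and without it (5 of 21, 23.8%) met the 2-fold limit in nearly equal shares. Those without it include pore genes such as KCNH3 and KCNH4, so the split does not separate pore from auxiliary subunits.

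Without HG-OE replicate 3, 13 channel genes were called at 2-fold, and 11 of them were among the 12. KCNH4 was lost there (log2 fold change −0.96), and KCNK1 and KCNC4 were gained. With each of the 6 libraries left out in turn, 10 of the 12 were called every time. The exceptions were KCNH4 and KCNH3, and none of the 12 changed sign.

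**Figure D3:**
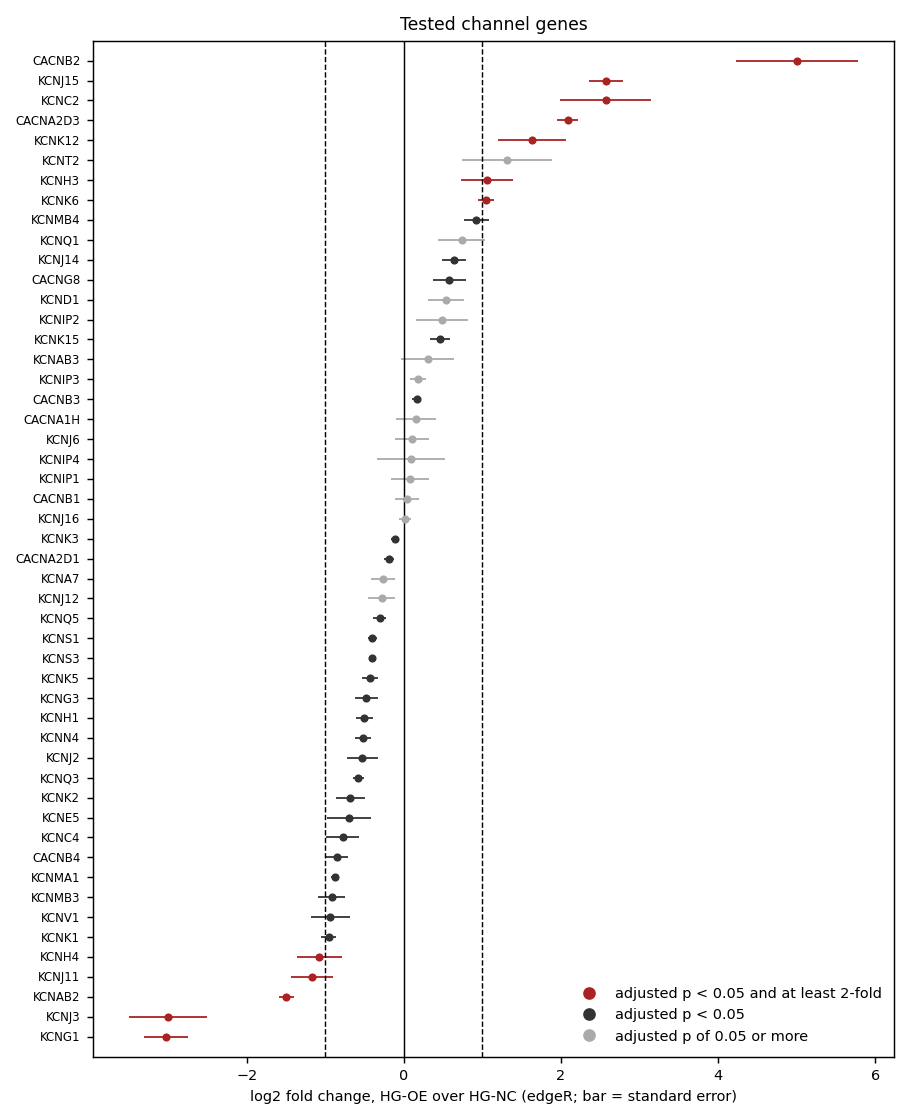
Log2 fold change of HG-OE over HG-NC for 50 of the 51 tested channel genes, in order of size, with the standard error of the edgeR fit as bars and dashed lines at 2-fold. Red points mark the 12 genes with an adjusted p under 0.05 and at least 2-fold, from KCNG1 at the bottom to CACNB2 at the top.

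Among the voltage-gated potassium channels, all 5 tested genes of silent subunits fell in HG-OE, as did 30.1% of protein-coding genes averaging 10 or more counts, and their summed FPKM was 25.8 to 26.9 in HG-NC and 18.6 to 19.8 in HG-OE. KCNG1, a silent subunit whose motif window is given above, had 67, 64 and 74 counts in HG-NC and 12, 9 and 6 counts in HG-OE. Every HG-OE library was far below every HG-NC library. Its log2 fold change was −3.03 (SE 0.28), or 8.15 times lower. KCNG1 passed the filter only through HG-NC, so its p is not given. KCNS3 had 1551, 1681 and 1734 counts in HG-NC and 1350, 1397 and 1330 in HG-OE, and fell by 0.40 on the log2 scale (SE 0.0465, adjusted p = 7.55e-06, edgeR). KCNS1 fell by 0.40 as well (adjusted p = 6.42e-05), KCNV1 by 0.94 (adjusted p = 0.00626) and KCNG3 by 0.48 (adjusted p = 0.0159). KCNS3 lies on chromosome 2, where the median log2 change of well-counted genes less than 10 Mb away was −0.29, and relative to these it stood at −0.11. KCNG3 on the same chromosome had such a median of −0.33 and stood at −0.14 relative to it.

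KCNC2, a fast-gating pore subunit known from neurons, had 2, 11 and 1 counts in HG-NC and 36, 39 and 17 counts in HG-OE. All HG-OE libraries were higher, but HG-NC replicate 2 held 78.6% of the counts of its group. The log2 fold change was 2.57 (SE 0.577), and it ranged from 2.08 to 4.12 with 1 library left out. KCNC2 passed the filter only through HG-OE, so its p is not given. KCNC4 fell by 0.78 on the log2 scale (adjusted p = 0.0068). KCNA7 and KCND1 did not pass the test (adjusted p = 0.164 and 0.0632).

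KCNAB2, a cytosolic beta subunit of KCNA channels, was among the clearest changes. It had 358, 372 and 356 counts in HG-NC and 139, 136 and 144 in HG-OE. Its groups were tight and far apart, with a log2 fold change of −1.49 (SE 0.1, adjusted p = 5.90e-08, edgeR) or 2.82 times lower. Of the KCNA pore genes in the table, KCNA7 was expressed, and KCNA2 and KCNA4 were not. KCNAB3 had a log2 difference of 0.30 (adjusted p = 0.48).

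In the KCNH family, channels with a cytosolic domain related to cyclic nucleotide binding, all 3 tested genes passed, where 58.4% of expressed protein-coding genes passed. KCNH1 had 501, 663 and 597 counts in HG-NC and 515, 439 and 393 in HG-OE. It fell by 0.50 on the log2 scale (SE 0.105, adjusted p = 0.00118), although HG-OE replicate 1 had more counts than HG-NC replicate 1 before scaling to library size. KCNH4 had 33, 47 and 31 counts in HG-NC and 21, 20 and 16 in HG-OE, with a log2 fold change of −1.08 (SE 0.283, adjusted p = 0.00585). KCNH3 went the other way, from 9, 10 and 11 counts to 22, 27 and 19 (log2 fold change 1.05, SE 0.331, adjusted p = 0.0163). Both 2-fold calls were at the limit. That of KCNH4 was lost without HG-NC replicate 2 (−0.88) or HG-OE replicate 3 (−0.96), and that of KCNH3 without HG-OE replicate 2 (0.91, adjusted p = 0.0807) and by the Wald test of DESeq2 (adjusted p = 0.142).

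Of the KCNQ genes, whose channels carry the slow M-type and cardiac currents, KCNQ3 fell from 728, 894 and 902 counts to 628, 631 and 575 (log2 fold change −0.58, SE 0.0706, adjusted p = 1.31e-05). KCNQ5 fell by 0.31 on the log2 scale (adjusted p = 0.00802). KCNQ1, also tested, had 14, 12 and 22 counts in HG-NC and 30, 29 and 28 in HG-OE, and its log2 difference of 0.74 did not pass (adjusted p = 0.055). KCNE5, a regulatory subunit of KCNQ channels, fell by 0.70 (SE 0.275, adjusted p = 0.0467), with 27, 36 and 33 counts in HG-NC and 17, 21 and 26 in HG-OE.

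None of the 4 KCNIP genes passed the test, where 58.4% of expressed protein-coding genes passed. KCNIP3, the most abundant, had 337, 379 and 438 counts in HG-NC and 484, 524 and 405 in HG-OE, with a log2 difference of 0.18 (SE 0.103, adjusted p = 0.174). KCNIP2 had the largest difference in the family (0.48, SE 0.337, adjusted p = 0.249), and its groups overlapped, since HG-OE replicate 1 had 19 counts and HG-NC had 27, 20 and 19.

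In the calcium-activated group, KCNMA1 fell in HG-OE. Its counts were 4459, 4846 and 5305 in HG-NC and 2965, 3015 and 2689 in HG-OE, or 181 ± 7.5 CPM and 99.2 ± 6.42 CPM (mean ± SD). The groups were well apart, with a log2 fold change of −0.87 (SE 0.0507, adjusted p = 1.60e-08, edgeR) or 1.83 times lower, under the 2-fold limit. KCNN4, the intermediate-conductance channel, fell too (356, 437 and 443 counts to 294, 353 and 288, log2 fold change −0.52, SE 0.1, adjusted p = 6.38e-04).

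The beta subunits of the KCNMA1 channel, which alter its calcium sensitivity and gating, went apart. KCNMB4 rose from 70, 67 and 63 counts to 120, 150 and 143 (log2 fold change 0.92, SE 0.158, adjusted p = 2.45e-04), and KCNMB3 fell from 129, 141 and 110 to 80, 60 and 79 (−0.92, adjusted p = 5.49e-04). For each 100 KCNMA1 counts there were thus 1.19 to 1.57 KCNMB4 counts in HG-NC and 4.05 to 5.32 in HG-OE, with no overlap (p = 0.1 by an exact two-sided permutation, the smallest value for 3 libraries against 3). The same ratio for KCNMB3 was 2.07 to 2.91 in HG-NC and 1.99 to 2.94 in HG-OE (p = 0.7 by the same exact permutation). These counts are not scaled to transcript length and say nothing of subunits per channel. KCNT2, a sodium-activated channel, had 2, 14 and 2 counts in HG-NC and 15, 16 and 18 in HG-OE. Its log2 difference of 1.31 did not pass the test. KCNT2 cleared the filter on low counts only through HG-OE, so its p is not given. HG-NC replicate 2 alone held 77.8% of the KCNT2 counts in its group, and without it the value was 2.83.

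Of the 8 inward rectifiers tested, 2 rose, 3 fell and 3 did not pass. The share that passed, 62.5%, lay near the 58.4% of expressed protein-coding genes. KCNJ3, a pore subunit of G-protein-activated channels, had 17, 19 and 18 counts in HG-NC and 1, 4 and 2 in HG-OE. Its HG-OE libraries were near 0, and the log2 fold change was −3.00 (SE 0.496). KCNJ3 passed the filter only through HG-NC, so its p is not given. KCNJ6, which pairs with KCNJ3 in neurons, had a log2 difference of 0.10 (SE 0.218, adjusted p = 0.722). KCNJ11, the pore of the ATP-sensitive channel, had 30, 41 and 35 counts in HG-NC and 16, 17 and 18 in HG-OE, with no overlap and a log2 fold change of −1.17 (SE 0.269, adjusted p = 0.00241).

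KCNJ15, an inward rectifier known from kidney epithelium, went from 22, 17 and 23 counts to 113, 162 and 129. The lowest HG-OE library was well above the highest HG-NC library. In CPM this was 0.772 ± 0.126 against 4.62 ± 0.856 (mean ± SD), with a log2 fold change of 2.58 (SE 0.215, adjusted p = 3.94e-07, edgeR), or 5.96 times higher. KCNJ16, the basolateral KCNJ subunit of renal epithelium and the KCNJ gene with the highest FPKM, had 408, 398 and 435 counts in HG-NC and 457, 461 and 444 in HG-OE, with a log2 difference of 0.01 (SE 0.076, adjusted p = 0.894). KCNJ10, a known partner of KCNJ16, was not expressed. KCNJ14 rose by 0.64 (adjusted p = 0.00346) and KCNJ2 fell by 0.53 (adjusted p = 0.0353). KCNJ12 did not pass, and the near-identical KCNJ18 makes its counts uncertain.

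**Figure D4:**
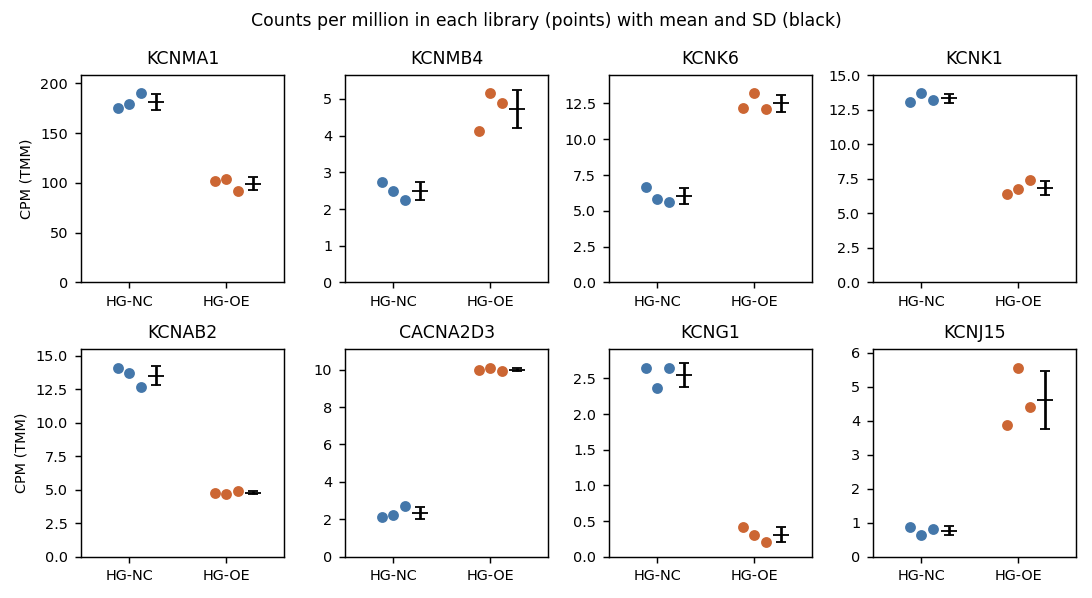
CPM in each of the 3 HG-NC (blue) and 3 HG-OE (orange) libraries for 8 channel genes, with the mean and SD in black. In each gene, all HG-OE libraries lie on 1 side of all HG-NC libraries.

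All 7 tested KCNK leak channel genes passed the test, 3 higher and 4 lower, and their groups did not overlap. The 7 and the 3 include KCNK12, which cleared the filter on low counts only through HG-OE, where it was high. Of expressed protein-coding genes, 58.4% passed and 64.7% did not overlap. KCNK6 rose from 170, 158 and 158 counts to 354, 384 and 355. Its log2 fold change was 1.05 (SE 0.104, adjusted p = 1.99e-06, edgeR), or 6.06 ± 0.551 CPM in HG-NC against 12.5 ± 0.596 CPM in HG-OE. KCNK1 moved by nearly as much in the other direction, from 332, 372 and 370 counts to 185, 198 and 217 (log2 fold change −0.96, SE 0.0964, adjusted p = 2.22e-06), just short of 2-fold.

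KCNK12 had 11, 5 and 5 counts in HG-NC and 32, 16 and 24 in HG-OE, with a log2 fold change of 1.63 (SE 0.432). It passed the filter only through HG-OE, so its p is not given. These counts are low, and its value ranged from 1.37 to 2.16 with 1 library left out. KCNK15 rose by 0.46 (adjusted p = 0.00683), and KCNK2 and KCNK5 fell by 0.68 and 0.43 (adjusted p = 0.00594 and 0.00292). KCNK3, which makes up most of the KCNK transcript level, had 2474, 2561 and 2697 counts in HG-NC and 2686, 2622 and 2448 in HG-OE, and scaled to library size it fell by 0.12 (SE 0.0456, adjusted p = 0.0475). The summed FPKM of the KCNK family was 24.6 to 25.7 in HG-NC and 22 to 24.5 in HG-OE. The well-counted genes less than 10 Mb away on chromosome 2 had a median log2 change of −0.32, and relative to them KCNK3 was 0.20 higher.

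Of the 7 expressed calcium channel genes, 5 passed, 3 higher and 2 lower, all of them genes of auxiliary subunits, where 58.4% of expressed protein-coding genes passed. The only expressed pore gene was the T-type CACNA1H, and whether these subunits join a channel in these cells was not tested. CACNA1H had 150, 151 and 177 counts in HG-NC and 151, 123 and 304 in HG-OE, a log2 difference of 0.15 (SE 0.249, adjusted p = 0.633). HG-OE replicate 3 alone was high, and without it the log2 fold change was −0.33 (adjusted p = 0.0401).

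CACNA2D3, an extracellular subunit of calcium channels, rose from 54, 60 and 76 counts to 289, 295 and 291. The HG-OE libraries were nearly equal and all above HG-NC. The log2 fold change was 2.08 (SE 0.129, adjusted p = 2.79e-08, edgeR), or 4.24 times higher. The gene lies on chromosome 3 from 54122552 to 55074557 (GRCh38), where the median log2 change of well-counted genes less than 10 Mb away was 0.51. Relative to these, CACNA2D3 was 1.57 higher. CACNA2D1, which had more counts (580 to 666), fell by 0.19 (SE 0.0668, adjusted p = 0.0299).

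CACNB2, a cytosolic subunit of L-type channels, had 0, 1 and 0 counts in HG-NC and 17, 18 and 12 in HG-OE. With 1 count against 47, the ratio scaled to library size was 43.1 (95% exact interval 7.37 to 1740, counting error only). It passed the filter only where it was high, so its p is not given. CACNB3, the CACNB gene with the highest FPKM, rose slightly, from 724, 826 and 812 counts to 979, 979 and 912 (log2 fold change 0.16, SE 0.0582, adjusted p = 0.0318). CACNB4 fell by 0.85 (SE 0.149, adjusted p = 2.83e-04), with a median of −0.44 in its neighbours on chromosome 2, and CACNB1 differed by 0.04 (adjusted p = 0.836). CACNG8, the only expressed CACNG gene of 6, rose by 0.58 (SE 0.215, adjusted p = 0.0366), from 36, 34 and 35 counts to 55, 66 and 50.

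Several channel genes share exon sequence with a counted neighbour, and the strand setting of the counting is not given in the sources used here. KCND3 shares 1036 bases with DDX20 (mean 972 counts) and had a mean of 4.83 counts. KCNJ14 and KCNE5 share bases on the same strand with GRWD1 (285 bases) and ACSL4 (78 bases), where strand cannot separate the genes. KCNMB3 shares 3403 bases with PIK3CA and KCNAB2 shares 212 bases with NPHP4, both on the opposite strand.

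Channel genes below the limit of expression had few counts to compare. Among 7 channel genes with at least 10 counts in a group of which 1 library held over 60%, 4 had them in HG-OE replicate 3. KCNE4, a KCNQ1 partner, had 21 of its 22 HG-OE counts there, and KCNJ8 had 16 of 21. KCND2 had 61.5% of its HG-OE counts in that library.

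A further 95 genes that assist or accompany these channels were listed, of which 85 were in the table and 67 were tested. An adjusted p under 0.05 was reached by 44, 21 higher and 23 lower, and 7 (10.4%) were called at 2-fold. With at least 10 counts required in each library, 4 of 61 were called, and the share over all genes was not computed for that filter. The share that passed, 65.7%, lay near the 58.4% of expressed protein-coding genes, of which 5.02% were called. DPP10, an accessory subunit of KCND channels, had 0, 0 and 0 counts in HG-NC and 44, 48 and 34 in HG-OE, at least 38.5-fold higher against a limit of 3 counts over the HG-NC group. DPP10 is among the 7, but it passed the filter only through HG-OE, so its p is not given. ABCC9, a sulfonylurea receptor that combines with KCNJ8 or KCNJ11, fell from 89, 144 and 115 counts to 47, 29 and 45 (log2 fold change −1.64, SE 0.223, adjusted p = 3.46e-05). ABCC8, the other sulfonylurea receptor, had a mean of 0.167 counts.

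In the TRP and polycystin class, 11 of 16 tested genes passed (68.8%, against 58.4% of expressed protein-coding genes), 5 higher and 6 lower. TRPV2 rose from 7, 11 and 19 counts to 32, 30 and 30 (log2 fold change 1.19). It passed the filter only through HG-OE, so its p is not given. TRPV2 was not called without HG-NC replicate 1 (0.95) or by DESeq2. TRPV3 fell (−1.36, adjusted p = 2.66e-04, edgeR). PIEZO1, a mechanically gated channel and the most abundant of the class, had 3328 to 3917 counts in HG-NC and 4194 to 4674 in HG-OE (0.16, adjusted p = 0.013), or 0.026 relative to its neighbours.

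Of the genes of store-operated calcium entry and calcium release, 11 of 15 passed (73.3%, against the same 58.4%), 8 higher and 3 lower. The IP3 receptors ITPR1, ITPR2 and ITPR3, which release calcium from the endoplasmic reticulum, all rose, ITPR2 from 837, 900 and 879 counts to 1747, 1722 and 1765 (log2 fold change 0.88, SE 0.0492, adjusted p = 1.16e-08). ITPR1 lies on chromosome 3, where its neighbours had a median of 0.49, and relative to them it stood at 0.031. The ryanodine receptor RYR2 fell by 1.12 at 10 to 39 counts per library. It passed the filter only through HG-NC, so its p is not given. RYR2 was not called without HG-NC replicate 1 (−0.93) or HG-OE replicate 3 (−0.86), nor by the Wald test of DESeq2. Of the plasma membrane channels for calcium entry, ORAI2 and ORAI3 rose by 0.25 and 0.59 (adjusted p = 0.00145 and 3.87e-05), and ORAI1 differed by −0.04 (adjusted p = 0.58). SARAF, an inhibitor of store-operated entry, rose by 0.29 (adjusted p = 2.92e-04).

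Among the pumps, exchangers and uniporter genes, 7 of 13 passed (53.8%, against 58.4%), 2 higher and 5 lower, and none reached 2-fold. Of 11 calcium sensors, 7 passed (63.6%), 1 higher and 6 lower. CALM2, one of the calmodulin genes, fell by 0.40 (adjusted p = 2.74e-06), with a median of −0.33 in its neighbours on chromosome 2. NFATC1, a transcription factor controlled by calcineurin, fell from 229, 244 and 289 counts to 138, 144 and 126 (log2 fold change −1.02, SE 0.116, adjusted p = 6.80e-06). Its value was −0.94 without HG-NC replicate 3, −0.96 without HG-OE replicate 3 and −0.48 relative to the median of its neighbours within 10 Mb (−0.53), all under 2-fold.

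Transcripts of excitable cells moved in these libraries as well. The summed neuron list (7 genes, 6 in the table, 4 with a mean of at least 10 counts, RBFOX3 at a mean under 1) was at 34.2 to 36.7 CPM in HG-NC and 20.3 to 23.3 CPM in HG-OE. Most of it was SYT1, which fell (log2 fold change −0.99, adjusted p = 3.68e-07), while SYN1 rose (35, 54 and 49 counts to 117, 150 and 124, log2 fold change 1.38, adjusted p = 2.95e-05). The muscle list (7 genes, 6 in the table, MYH6 and MYOG at a mean under 1) was at 7.16 to 9.09 CPM and 4.51 to 5.86 CPM. Endothelial and blood markers were at or under 0.58 CPM in every library. The part of these lists in the channel results was not tested.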

How the data were processed

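Poly(A) RNA of 3 HG-NC and 3 HG-OE cultures was sequenced in directional paired-end libraries. Per the submitters' notes and the paper, the authors trimmed the reads and aligned them to GRCh38 with HISAT2. Each deposited count is the raw number of pairs that mapped uniquely to a gene, and the authors derived the deposited FPKM from them. The counter, its strand setting and the annotation are not given in the sources used here, nor whether the ComBat_seq correction that the paper names entered the counts.

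Counts were compared in R 4.3.3 with edgeR 4.0.16 (TMM, default low-count filter, 17142 of 31831 genes kept, quasi-likelihood test, Benjamini-Hochberg adjustment over all genes kept). A gene passed at an adjusted p under 0.05 and was called at 2-fold with, in addition, at least that change. CPM values use TMM library sizes, and standard errors come from the edgeR fit. Totals of 25507595 to 29444841 pairs set the precision, a count of 0 allows up to 3 counts, and intervals cover counting error only. limma 3.58.1 (FPKM) and DESeq2 1.42.0 served as alternatives, with other filters, a replicate block, 1 library left out at a time, and the median of well-counted genes (mean of at least 100 counts) within 10 Mb removed. Positions and coding sequences come from GENCODE 44.

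Channel genes and lists were chosen with earlier results of these data known. Genes named were HNRNPF, KCNJ11, expressed channel genes called at 2-fold, the highest FPKM and the largest change per family, the 10 smallest adjusted p at a mean of at least 100 counts, genes dominated by 1 library, called related genes and the highest of each class, non-coding matches with a mean of at least 10 counts, and the 2 most counted markers of each list. Others named were chosen after their values were seen. In a simulated HG-OE against HG-NC comparison on 17142 genes, 200 of 200 genes changed by 4-fold were recovered with 0 false calls by each tool. Some genes are not reported here by name.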

Additional observations from a re-analysis of the deposited data

How the results depend on the processing

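The count of 12 channel genes called at 2-fold stayed between 11 and 15 with the size factors or Wald test of DESeq2, no low-count filter, the replicate block, the local median removed, or 1 library left out (12 to 15). It was 6 with at least 10 counts in every library, since 6 called genes fall under that filter. On log2(FPKM + pseudocount) scales, which shrink the folds of low genes, limma called 0 with a pseudocount of 1 (24 at an adjusted p under 0.05 and 28 at an unadjusted one), 0 without a filter on FPKM (27 and 38) and 4 with a pseudocount of 0.1, where 23 in place of 36 passed at any fold. The 7 related genes became 11 without a filter, 4 with at least 10 counts in every library, and 0, 0 and 0 with limma. Libraries with the same number did not deviate together (correlations of −0.027, 0.030 and −0.00099), so the numbers pair nothing; the replicate block gave 13 calls, KCNT2 added (1.44). The local median removed KCNH3 and KCNH4 from the calls and added KCNMB4 (1.01). Without HG-NC replicate 3 or HG-OE replicate 1, KCNV1 was also called. Of 745 alternative values of the 51 tested genes, 688 kept direction and side of the limit, 30 were weaker, 11 stronger and 16 reversed, none of these among the 12. With the local median removed, reversals were CACNA1H (−0.082), KCNK3 (0.20) and KCNIP1 (−0.39). With a library left out, differences that had not passed spanned both signs: CACNA1H from −0.33 to 0.39, CACNB1 from −0.0586 to 0.15, KCNIP1 from −0.0753 to 0.20, KCNIP4 from −0.27 to 0.40, KCNJ6 from −0.17 to 0.22, KCNJ16 from −0.0192 to 0.044 and the non-coding KCNK4-TEX40 from −0.23 to 0.044. KCNJ16 was also at −0.0015 without a filter and at −0.0012, −0.0014 and −0.0012 with limma. The cause was not tested. Depth limits the 58 genes under a mean of 10 counts, of which only CACNB2 was tested.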

Other observations

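Apart from the protein-coding channel genes, 14 long non-coding genes of the table have matching symbols, and 4 had a mean of at least 10 counts. KCNH1-IT1, transcribed from within KCNH1, fell with its host gene, from 26, 34 and 27 counts in HG-NC to 16, 17 and 17 in HG-OE (log2 fold change −0.91, standard error 0.28, adjusted p = 0.0142 by the quasi-likelihood test of edgeR). KCNK15-AS1, on the strand opposite KCNK15, rose with it, from 7, 10 and 6 counts to 14, 18 and 18 (log2 fold change 0.99, standard error 0.384). It passed the filter only through HG-OE, so its p is not given. Each pair overlaps, so reads of the partners may not be fully separated. KCNK4-TEX40, a readthrough gene, had 51, 80 and 71 counts in HG-NC and 68, 75 and 62 in HG-OE, a log2 difference of −0.09 (adjusted p = 0.714). KCNQ1OT1, the antisense transcript of the imprinted KCNQ1 locus, had no count in HG-NC and 3, 0 and 198 counts in HG-OE. Its counts came almost wholly from HG-OE replicate 3, and it was not among the genes tested.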
